A study of Homo sapiens with 8 samples.

Results

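The 6 genes described here are MMP1, MMP3, MMP7, MMP10, MMP12 and MMP13, secreted matrix metalloproteinases encoded side by side at 11q22. They were taken by symbol from a table of raw counts over 34415 gene symbols, and all 6 symbols were found. RNA came from HaCaT, a keratinocyte line from human epidermis that became immortal spontaneously, used between passages 21 and 33. Every culture was kept in RPMI-1640 with 10% serum, moved from a basal 5.5 mM glucose to 96 h of high glucose (35 mM), and given small interfering RNA (siRNA) for 48 h. The siETV4 group (n = 4) received siRNA against the ETS transcription factor ETV4 and the siNC group (n = 4) received negative-control siRNA. The submitters call the 4 cultures of each group biological replicates. All 8 libraries share 1 cell line and high glucose, so the siRNA is the only difference between the groups that the labels give. Passage is given as a range and not for each culture. The sources used here do not give the siRNA sequences.

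Matrix metalloproteinases are zinc proteases that are secreted as inactive proenzymes and become active once their propeptide is cut or displaced. MMP1 and MMP13 are collagenases, which cleave the intact triple helix of fibrillar collagens. MMP3 and MMP10 are stromelysins, which cut a wide range of matrix proteins and activate other proenzymes, MMP7 (matrilysin) is a short enzyme without the hemopexin-like domain of the others, and MMP12 is macrophage elastase. In wounded skin MMP1 and MMP10 are known from keratinocytes at the migrating edge and MMP3 from those behind it. Promoters of several of these genes are classically described with an AP-1 site, sites for ETS factors of the PEA3 group, to which ETV4 belongs, and a TATA box.

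The 9 MMP genes of the cluster lie on chromosome 11 of GRCh38.p14, the assembly hg38 also names, within 435225 bases from 102520508 to 102955732, all on the minus strand. MMP7 (102520508 to 102530747) and MMP13 (102942995 to 102955732) stand at its ends. Between them lie MMP20, MMP27, MMP8, MMP10 (102770502 to 102780628), MMP1 (102789919 to 102798160), MMP3 (102835801 to 102843609) and MMP12 (102862736 to 102874982), in that order. In the RefSeq table the pseudogene WTAPP1, on the opposite strand, overlaps MMP1 and MMP3, and the long non-coding gene LOC124902741 overlaps MMP12. Neither has a row of its own in the counts, and whether the counting used strand is not stated by the sources used here.

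RefSeq promoter sequences were at hand for 2 of the 6 members, MMP7 and MMP10. The 180 bases before the start of each are printed 5′ to 3′ on the gene's strand (minus). MMP7 is the member that passed the test and MMP10 a member that was barely expressed. Any part of their promoters in that difference was not tested. Capitals mark matches to AP-1 (TGAGTCA or TGACTCA), PEA3 (AGGAAG, here as its reverse complement CTTCCT) and TATAAA. The first lies at chr11:102530748-102530927 and the second at chr11:102780629-102780808.
MMP7: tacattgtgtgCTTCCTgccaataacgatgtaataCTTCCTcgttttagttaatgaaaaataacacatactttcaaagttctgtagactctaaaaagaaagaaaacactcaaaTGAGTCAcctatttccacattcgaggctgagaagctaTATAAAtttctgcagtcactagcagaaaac
MMP10: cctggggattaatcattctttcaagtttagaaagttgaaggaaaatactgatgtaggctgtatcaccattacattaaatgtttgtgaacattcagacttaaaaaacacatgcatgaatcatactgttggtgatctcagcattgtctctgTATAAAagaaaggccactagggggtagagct

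Both strands of the 250 bases before each start were searched. The MMP7 window held AP-1 letters from -67 to -61, PEA3 letters from -169 to -164 and from -145 to -140, and TATAAA from -30 to -25, counted from the base before the start as -1. MMP10 held TATAAA from -31 to -26 and no match to the AP-1 or PEA3 letters. Of 35116 promoter windows of this length, 4.20% held the AP-1 letters, 28.7% the PEA3 letters and 10.7% TATAAA. The bare ETS core GGAA, which the PEA3 letters contain, was in 92.7% of the windows and in both of these. These are matches of letters, not measured binding.

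Levels between genes were compared in the deposited FPKM, which are scaled by gene length and library total. MMP7 was the most abundant member, at 57.8 ± 6.13 FPKM in siETV4 and 24.9 ± 4.76 FPKM in siNC (SD, n = 4 each). MMP13 followed at 7.84 ± 1.96 and 2.498 ± 1.48 FPKM, then MMP1 at 0.379 ± 0.182 and 0.192 ± 0.0947 FPKM. Over all 8 libraries the lowest MMP7 value (20.2 FPKM) exceeded the highest MMP13 value (9.74 FPKM), and the lowest MMP13 value (1.29 FPKM) exceeded the highest MMP1 value (0.623 FPKM). MMP1 and MMP10 overlapped, since MMP1 fell to 0.0724 FPKM in siNC replicate 2 and MMP10 reached 0.0828 FPKM in siETV4 replicate 2. MMP12 reached 0.0670 FPKM at most, overlapping MMP10, and MMP3 was listed at 0 in every library. MMP7 alone made up 87.6 ± 1.94% of the summed FPKM of the 6 members in siETV4 and 90.5 ± 3.71% in siNC, and MMP13 11.7 ± 1.82% and 8.69 ± 3.59% (SD, n = 4 each). These shares overlapped between the groups.

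Of the 6 members, 3 (MMP7, MMP13 and MMP1) had enough counts to be tested among 13572 genes, and 1, MMP7, passed an adjusted p of 0.05, against 0.236% of all genes tested in either direction and 0.118% in the higher direction. The groups did not overlap, with siETV4 higher, for 2 members, MMP7 and MMP13, against 2.62% of all genes tested. The median log2 fold change (siETV4 minus siNC) of the 3 tested members was 1.17, beside -0.01 for all genes tested. MMP10, MMP12 and MMP3 were too low for the test. In bulk RNA a change in the level per cell cannot be told apart from a change in the number of cells that express the gene.

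MMP7 rose in siETV4. Its CPM values (counts scaled to equal library size with TMM factors) were 64.9, 58.5, 70.7 and 60.5 in siETV4 replicates 1 to 4. In siNC replicates 1 to 4 they were 32.9, 25.03, 23.3 and 31.8. Every siETV4 library stood above every siNC library, and the lowest siETV4 value was well clear of the highest siNC value. The means were 63.6 ± 5.42 and 28.3 ± 4.82 CPM (SD, n = 4 each), a 2.25-fold difference (log2 fold change 1.17, SE 0.13). In edgeR's quasi-likelihood test the Benjamini-Hochberg adjusted p was 0.00611. MMP7 ranked 74 of the 13572 genes by log2 fold change. It passed whichever library was left out, with log2 fold changes of 1.09 to 1.25.

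MMP13 was the member with the largest difference among those tested but did not pass. It stood at 26.0, 15.9, 24.2 and 17.5 CPM in siETV4 replicates 1 to 4. In siNC replicates 1 to 4 it stood at 5.66, 3.66, 5.54 and 12.4 CPM. The groups did not overlap, but siNC replicate 4 lay at more than the level of any other siNC library and nearer to siETV4 replicate 2 than to siNC replicate 1. The means were 20.9 ± 4.94 and 6.80 ± 3.81 CPM (SD, n = 4 each), a 3.06-fold difference (log2 1.62, SE 0.33) for which edgeR gave an adjusted p of 0.0882. MMP13 ranked 25 of 13572 by log2 fold change. Without siNC replicate 4 edgeR gave a log2 fold change of 2.07 (SE 0.21) at an adjusted p of 0.000599, so that 2 members, MMP7 and MMP13, were called higher there. In that fit 12.0% of all genes tested were called higher.

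**Figure D1:**
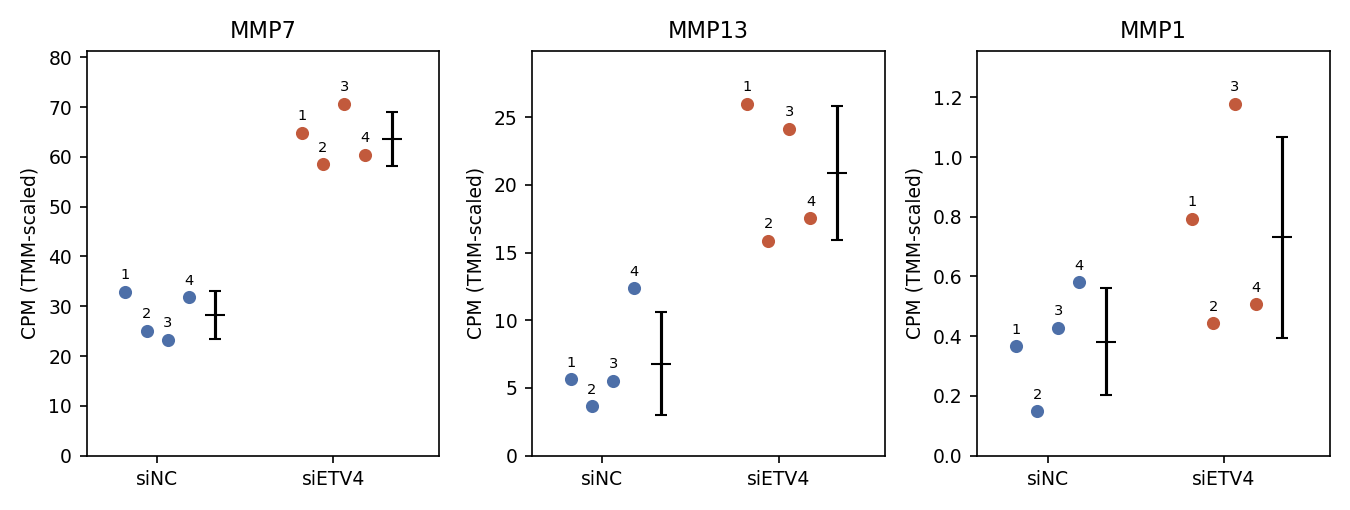
CPM of MMP7, MMP13 and MMP1 in each library (points, labelled with the replicate number; vertical axes start at 0) with the mean and SD of each group of 4 (bars). MMP7 and MMP13 do not overlap between siNC and siETV4, siNC replicate 4 is the highest siNC library for MMP13 (12.4 CPM), and MMP1 overlaps.

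Replicate 4 was also the siNC library lowest in the siRNA target. ETV4 was at 19.8 CPM there and at 29.7 to 32.0 CPM in the other siNC libraries, against 1.83 to 3.10 CPM in siETV4. The siNC library lowest in ETV4 was therefore the one highest in MMP13 and in MMP1, while the one highest in ETV4, replicate 1, was the highest in MMP7. Of the siETV4 libraries the one lowest in ETV4, replicate 3, was the highest in MMP7 and in MMP1, while the one highest in ETV4, replicate 1, was the highest in MMP13. The part of the ETV4 level of siNC replicate 4 in its MMP13 and MMP1 values was not tested.

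Across the libraries, genes of low GC content moved together, and this moved with MMP13. The deviation of a library from the mean of all 8 had a Spearman correlation with transcript GC content, across genes, of -0.65, 0.21, -0.58 and 0.02 in siETV4 replicates 1 to 4. In siNC replicates 1 to 4 it was 0.56, 0.53, 0.64 and -0.60. The libraries with negative values, siETV4 replicates 1 and 3 and siNC replicate 4, were the highest of their groups for MMP13 and for MMP1. The longest transcript of MMP13 has a GC content of 38.9%, with 11.6% of the tested genes lower, and that of MMP7 41.3%, with 21.7% lower. With each library's trend with GC content and length removed, MMP13 stood at 22.9, 16.7, 21.7 and 19.8 CPM in siETV4 replicates 1 to 4 and at 6.97, 4.46, 7.10 and 11.3 CPM in siNC replicates 1 to 4. The siETV4 values of MMP13 then lay closer together, siNC replicate 4 stayed the highest of its group, and the groups still did not overlap. MMP7 stood at 61.6, 57.0, 64.6 and 68.7 CPM in siETV4 replicates 1 to 4. In siNC replicates 1 to 4 MMP7 was at 40.8, 28.2, 27.9 and 32.3 CPM. Its siNC values lay further apart than before, and the gap between its groups was narrower. For MMP13 edgeR then gave a log2 fold change of 1.43 (SE 0.21) at an adjusted p of 0.00643. For MMP7 it gave 0.96 (SE 0.12) at an adjusted p of 0.00109, so that 2 members were called higher, against 0.770% of the 12470 genes in that fit. The trends were not balanced between the groups, and siRNA was not a term when they were fitted. Whether their removal took out part of the siRNA difference was not tested.

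**Figure D2:**
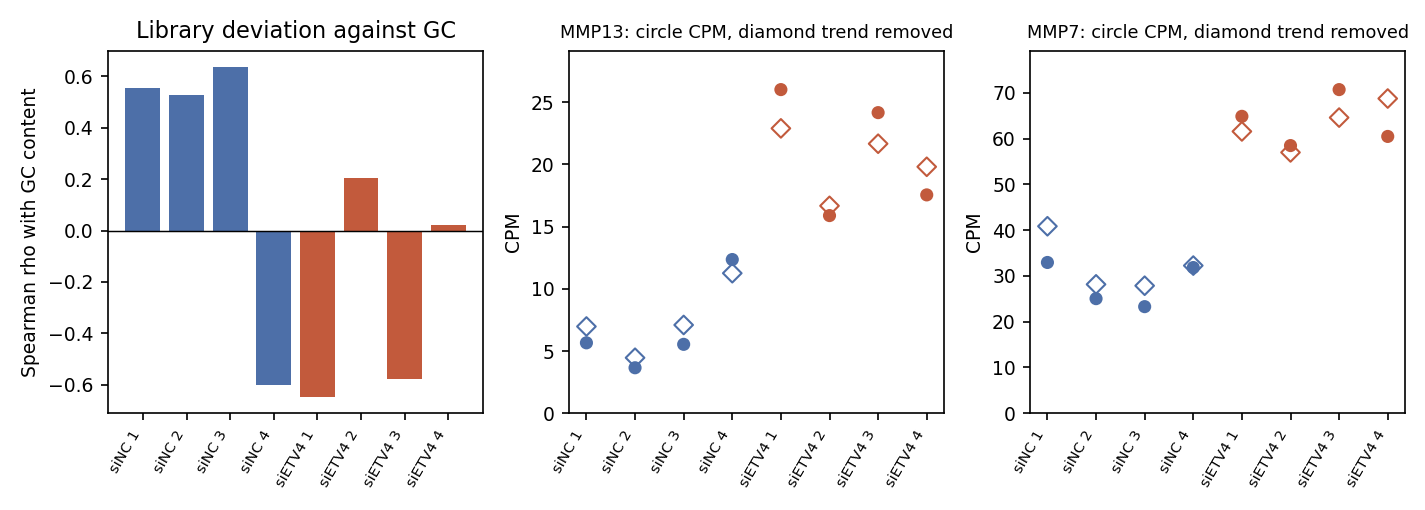
Left, Spearman correlation across genes between each library's deviation and transcript GC content. Middle and right, MMP13 and MMP7 in each library as CPM (circles) and as CPM with the trend with GC content and length removed (diamonds), with axes from 0. For both genes every siETV4 library (orange) stays above every siNC library (blue) on either scale.

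MMP1, the interstitial collagenase, was low and overlapped between the groups. Its counts were 33, 18, 49 and 21 in siETV4 replicates 1 to 4 and 15, 5, 17 and 24 in siNC replicates 1 to 4. Replicates 2 and 4 of siETV4 lay below siNC replicate 4. The means were 0.731 ± 0.335 and 0.381 ± 0.179 CPM (SD, n = 4 each), and edgeR put the log2 fold change at 0.92 (SE 0.48, adjusted p 0.446). With 1 library left out the log2 fold change was 0.59 (without siETV4 replicate 3) to 1.19 (without siNC replicate 4). MMP1 passed in none of the 20 fits that gave it a value.

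Ratios of members within a library do not depend on how libraries are scaled to each other. The ratio of MMP7 to MMP13 counts was 2.49, 3.68, 2.93 and 3.44 in siETV4 replicates 1 to 4. In siNC replicates 1 to 4 it was 5.81, 6.82, 4.20 and 2.57. Replicate 4 of siNC lay among the siETV4 libraries and the other siNC libraries lay above them. The mean log2 ratio differed by -0.55 between siETV4 and siNC, with an exact two-sided permutation p of 0.143 over the libraries (adjusted over 3 ratios 0.214), where 4 against 4 cannot give less than 0.0286. With 1 library left out the difference was between -0.83 (without siNC replicate 4) and -0.36 (without siNC replicate 2). A difference between MMP7 and MMP13 in their response was therefore not shown. The ratios of MMP7 and of MMP13 to MMP1, added after the values were seen because MMP1 has 5 counts in 1 library, differed by 0.23 (exact permutation p 0.629, adjusted 0.629) and 0.78 on the log2 scale (exact permutation p 0.0857, adjusted 0.214). With 1 library left out the first ranged from 0.04 (without siNC replicate 3) to 0.55 (without siNC replicate 2) and the second from 0.63 to 0.97.

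The stromelysin MMP10 had 0, 6, 0 and 2 counts in siETV4 replicates 1 to 4 and 0, 4, 0 and 0 in siNC replicates 1 to 4. Summed over each group this was 8 counts (95% exact Poisson interval 3.45 to 15.8) and 4 counts (1.09 to 10.2), a ratio per total count of 1.94 (0.520 to 8.80). MMP12 had 5, 0, 2 and 0 counts in siETV4 and 0, 1, 0 and 0 in siNC, a ratio of 6.79 (0.872 to 306). Both intervals, which cover counting error only, include equal levels, and each gene was at 0 in 5 of 8 libraries. MMP3 had 0 counts in all libraries. At the upper 95% Poisson limit (1-sided) a count of 0 allows about 3 counts. This is 0.0720 to 0.0856 CPM in a single library and 0.00936 CPM over the 320667639 counts of all 8 libraries. MMP3 was among the 40.2% of gene symbols at 0 throughout.

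The other MMP genes of the cluster were as low. The neutrophil collagenase MMP8 had 8 counts in siETV4 replicate 3, 1 in siNC replicate 1 and 0 elsewhere. MMP20, the enamel protease enamelysin, had 22 counts in siETV4 replicate 4 and 0 in the other 7 libraries, and MMP27 had 0 in all 8. None of these 3 genes was tested, so that of the 9 cluster genes the 2 at its ends, MMP7 and MMP13, had a group mean above 1 CPM.

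Genes around the cluster were taken as all those of the count table that RefSeq places within 1 Mb of it. Of 16 such genes 7 were tested and none was called by edgeR, with a median log2 fold change of 0.25. The nearest protein-coding neighbours are TMEM123, a cell surface mucin-like protein, on the MMP7 side and DCUN1D5, which acts in cullin neddylation, on the MMP13 side. TMEM123 had 188 ± 41.0 CPM with siETV4 against 156 ± 58.3 CPM with siNC, a log2 fold change of 0.26 (SE 0.23) that edgeR did not call (adjusted p 0.630). For DCUN1D5 these were 77.6 ± 3.81 and 63.4 ± 6.84 CPM, a log2 fold change of 0.29 (SE 0.10) that edgeR did not call either (adjusted p 0.301). BIRC3, an inhibitor of apoptosis induced by NF-kB, had the highest value of the tested neighbours, with a log2 fold change of 0.57 (SE 0.31). Without siNC replicate 4, 4 of the 7 (YAP1, BIRC3, BIRC2 and TMEM123, named after their values were seen) were called higher, where 12.0% of all genes tested were, and 0 once trends with GC content and length were taken out.

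**Figure D3:**
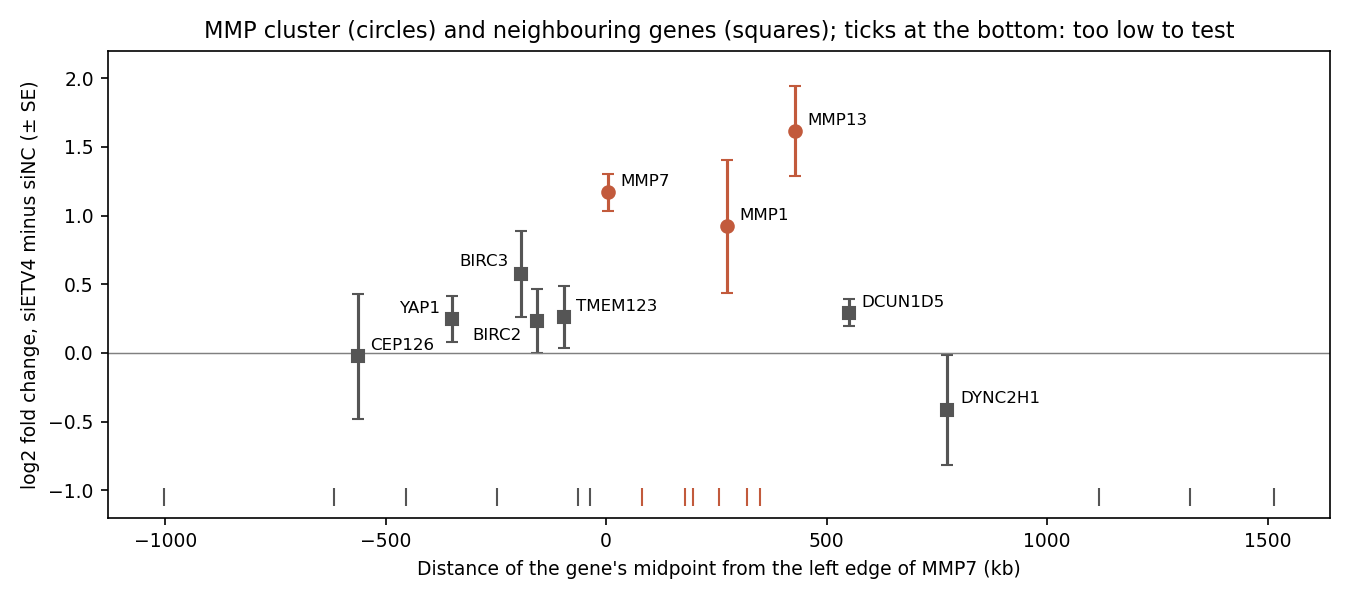
Log2 fold change (siETV4 minus siNC, ± SE) of each tested gene against the distance of its midpoint from the left edge of MMP7 in kb. Circles are MMP genes and squares neighbouring genes, and ticks at the bottom mark genes too low to test. MMP7 (1.17), MMP1 (0.92) and MMP13 (1.62) lie above the neighbours, whose highest value is 0.57.

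MMP genes outside the cluster were tested in 7 of 14 cases, of which 1 was lower and 0 higher past the threshold, with a median log2 fold change of -0.15. The one that fell was MMP14, the membrane-bound enzyme that activates proMMP2 and proMMP13, at 309, 320, 292 and 350 CPM in siETV4 replicates 1 to 4 against 609, 608, 605 and 553 CPM in siNC replicates 1 to 4. Its groups were far apart, with means of 318 ± 24.5 and 594 ± 27.1 CPM and a log2 fold change of -0.90 (SE 0.08, adjusted p 0.00205 in edgeR). MMP28, epilysin, stood at 190 ± 10.99 and 204 ± 19.8 CPM and edgeR did not call it (log2 fold change -0.10, SE 0.09, adjusted p 0.647). MMP14 thus moved opposite to MMP7 in the same libraries.

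Among inhibitors of metalloproteinases, 0 of 7 tested genes of a list of 11 passed, with a median log2 fold change of -0.10. TIMP2 had a log2 fold change of -0.10 (SE 0.10) and TIMP3, the inhibitor bound to matrix, of -0.25 (SE 0.13). Of 14 tested genes that activate proenzymes or induce them at the cell surface, 0 passed (median 0.02), with BSG, the glycoprotein EMMPRIN, at -0.08 (SE 0.09) and ST14, the serine protease matriptase, at 0.02 (SE 0.10). Once trends with GC content and length were taken out, 2 of the 14 were called higher and 1 lower, against 0.770% and 0.682% of all genes in that fit. Of 24 tested substrates 0 passed (median -0.04), and with these trends taken out 1 was called higher and 0 lower. IGFBP3, a carrier of insulin-like growth factors that several MMPs cleave, had a log2 fold change of -0.07 (SE 0.09), and COL17A1, a collagen of the hemidesmosome, of -0.20 (SE 0.10).

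Of 23 tested AP-1 and ETS factors, ETV4 alone passed, lower as the siRNA target, and the median log2 fold change was -0.09. ELF3, an epithelial ETS factor, had a log2 fold change of -0.10 (SE 0.08) and JUNB, an AP-1 subunit, of -0.13 (SE 0.09). None of 29 tested inducers of MMP genes (cytokines, growth factors, their receptors and signalling factors) passed (median 0.09), and their most abundant members were EGFR at 0.04 (SE 0.16) and STAT3, a transcription factor downstream of cytokine receptors, at 0.01 (SE 0.08). Of the 29, 19 had a log2 fold change above 0, where the median of all genes tested was -0.01. The share of all genes above 0 was not counted. The cytokine CXCL8, named after its values were seen, was at 0.82 (SE 0.15, edgeR adjusted p 0.0623). Once trends with GC content and length were taken out, 1 of the 29, CXCL8, was called higher (edgeR adjusted p 0.0183). In that fit 0.770% of all genes were called higher. Wnt target genes, a group to which MMP7 is often assigned, had 0 of 8 tested members past the threshold (median -0.02), with CCND1 at 0.10 (SE 0.09) and CD44 at 0.01 (SE 0.10). Collagen receptors and related integrins had 0 of 7 past the threshold (median 0.19), among them DDR1 at 0.06 (SE 0.09) and ITGB1 at 0.31 (SE 0.25). Without siNC replicate 4, where 12.0% of all genes tested were called higher and 4.88% lower, the calls were 3 higher and 2 lower of 23 AP-1 and ETS factors, 7 and 1 of 29 inducers, 1 and 2 of 9 Wnt targets, and 4 and 1 of 7 collagen receptors.

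All libraries carried keratinocyte markers. Each of the 16 markers averaged at least 1 CPM in both groups, and their sum was 7496 to 8281 CPM in siETV4 and 7955 to 8718 CPM in siNC. Of these markers 1 rose (KRT17, log2 fold change 0.95, SE 0.11) and 1 fell (KRT15, -0.83, SE 0.10), both with an edgeR adjusted p of 0.00636. Fibroblast markers, looked at because fibroblasts are a source of MMP1 and MMP3, summed to 15.6 to 19.7 CPM in siETV4 and 16.8 to 20.6 CPM in siNC. Of 11, 2 averaged at least 1 CPM, TWIST2 and COL1A1, while COL1A2 and LUM had 0 counts in every library. TWIST2 alone made up most of the sum. The proteoglycan DCN, named after its values were seen, averaged 0.658 ± 0.250 CPM with siETV4 against 0.146 ± 0.0933 CPM with siNC (log2 fold change 2.17, SE 0.58). It did not pass in edgeR (adjusted p 0.203), nor once trends with GC content and length were taken out (edgeR adjusted p 0.157). Without siNC replicate 4, where 12.0% of all genes tested were called higher, it did (edgeR adjusted p 0.0440). Macrophage markers, looked at because of MMP12, summed to 23.1 to 25.6 CPM in siETV4 and 17.2 to 25.3 CPM in siNC. Of 12, the lysosomal glycoprotein CD68 alone averaged at least 1 CPM, and PTPRC, AIF1 and TYROBP had 0 counts in every library. The part of other cells in the MMP values was not tested.

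To find the genes that varied most like each tested member, deviations of log2 CPM from the group mean were correlated over the 8 libraries. The 3 genes nearest to MMP7 were FAM72C (Pearson r 0.993), YWHAQ (0.960) and ZNF264 (0.954). Those nearest to MMP13 were AHI1 (0.994), the desmosomal cadherin DSG3 (0.993) and PHKB (0.992), and those nearest to MMP1 were PARP11 (0.968), ZNF155 (0.966) and ZNF75D (0.958). None of these 9 genes passed the threshold between the siRNAs in edgeR with all 8 libraries. Without siNC replicate 4 DSG3 did (edgeR adjusted p 0.00625), where 12.0% of all genes tested were called higher and 4.88% lower. The 9 genes were picked from 10986 or 10987 genes and are given as a description. The 8 points behind them share library depth and the trends with GC content. Among the members the same measure was 0.63 for MMP7 with MMP13, 0.58 for MMP7 with MMP1 and 0.85 for MMP13 with MMP1. With ETV4 it was -0.48 for MMP7, -0.59 for MMP1 and -0.61 for MMP13, over the same 8 points, which include siNC replicate 4.

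**Figure D4:**
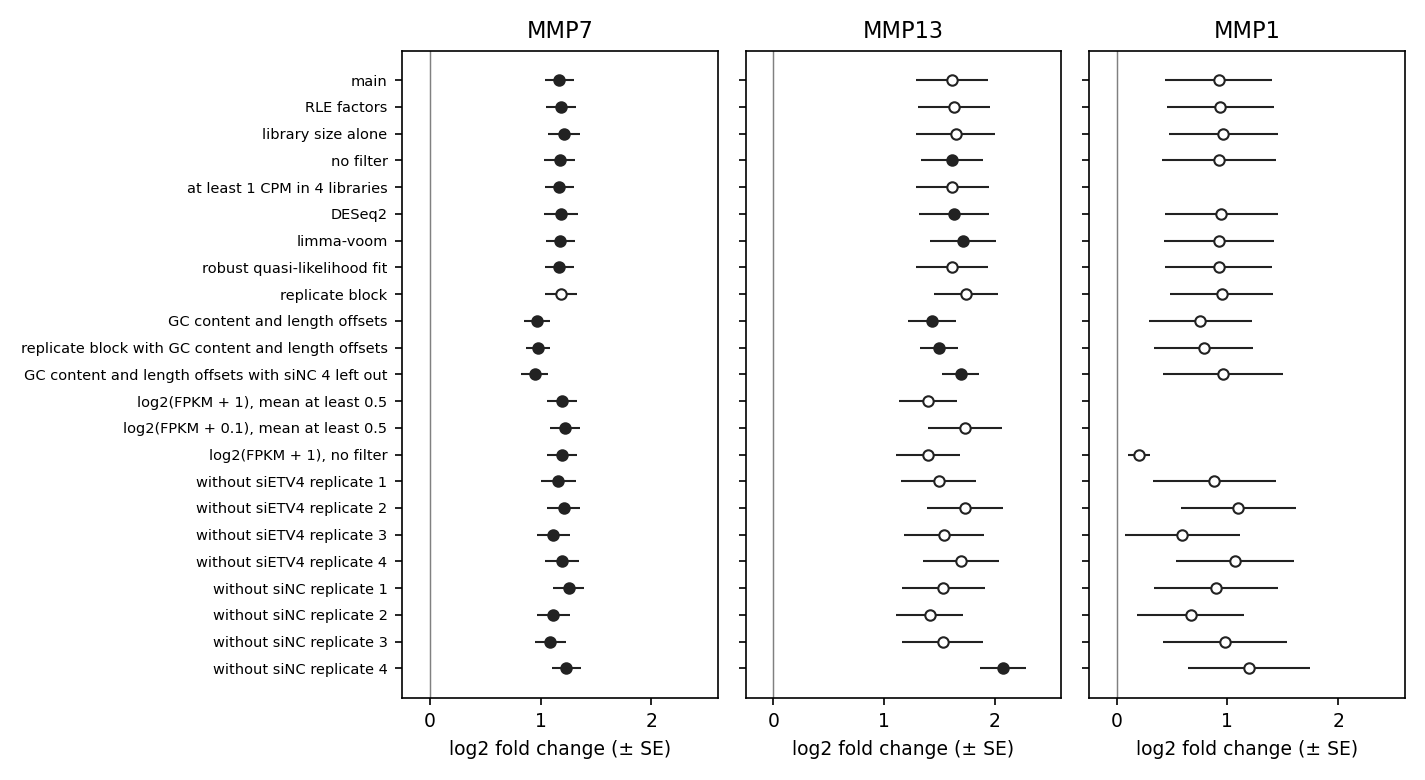
Log2 fold change (siETV4 minus siNC, ± SE) of MMP7, MMP13 and MMP1 under each way of processing or set of libraries, with filled points at an adjusted p under 0.05 and open points otherwise. All 3 genes stay above 0, MMP7 is open only with the replicate block, and MMP13 is filled in 7 fits. Missing points are fits whose filter left MMP1 out.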

How the data were processed

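The authors deposited raw read counts per gene symbol and FPKM values for the same 34415 symbols and 8 libraries. Per the submitters' processing notes the build was hg38 and R 3.2.0 was used. The sources used here do not give the aligner, counter, annotation or strandedness. Library totals were 35057643 to 41657753 counts. Pairwise correlation of log2 CPM was 0.973 to 0.987, and the chi-square per degree of freedom of any 2 libraries was at least 10.4, so none repeated another.

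Counts were tested in R 4.3.3 with edgeR 4.0.16 (filterByExpr, TMM, quasi-likelihood test, siRNA as the only term), and p-values were adjusted by Benjamini-Hochberg over the 13572 genes tested. SE come from the same fit. Ratios used counts plus 0.5 and scipy 1.17.1. The longest transcript of a gene in GENCODE v29 gave its GC content, and the deposited FPKM its length. Both were found for 91.9% of the tested genes and were removed by splines with 5 degrees of freedom each. The test was checked on simulated counts. These held no trend with GC content or length and no deviating library, so the check does not cover such features.

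The members, lists and alternatives (other scalings, filters, DESeq2 1.42.0, limma 3.58.1, replicate block, offsets, libraries left out) were chosen with earlier results of these data known. The text names the members, ETV4, the other MMP genes of the cluster, neighbours past the threshold or nearest on each side, and from each list the 4 genes of smallest p among those called or, with under 2 called, the 2 of highest mean CPM over both groups.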

Additional observations from a re-analysis of the deposited data

Results flagged for a closer look

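In 5 groups of 4 libraries a single library lay far from the other 3, and in each of them those 3 had 0 counts. MMP20 was at 0.531 CPM in siETV4 replicate 4, MMP8 at 0.192 CPM in siETV4 replicate 3 and 0.0244 CPM in siNC replicate 1, MMP10 at 0.119 CPM in siNC replicate 2, and MMP12 at 0.0297 CPM in siNC replicate 2. Chance alone marks about 1 in 20 groups of continuous values, but beside 3 values of 0 any count is marked, so the number of such groups says nothing of chance. MMP8 and MMP12 in siNC rest on a single count.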

How the results depend on the processing

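The number of genes called was 32, or 0.236% of the 13572 tested. It was 54 with no filter, 223 with DESeq2 and 42 with limma-voom. On log2(FPKM + 1) and on log2(FPKM + 0.1) with a mean of at least 0.5 it was 59. With the GC content and length offsets it was 181 (0.770% of 12470 genes higher and 0.682% lower). With these offsets and siNC replicate 4 left out it was 832. With 1 library left out it was 9 to 2327, the highest without siNC replicate 4 (12.0% of 13783 genes higher and 4.88% lower). Shares were not computed for the other fits, so their member counts stand without that background. The number of members called, 1, became 2 (MMP7 and MMP13) with no filter, DESeq2, limma-voom and the offsets with or without siNC replicate 4, and was 1 to 2 with 1 library left out. MMP13 passed at log2 fold changes of 1.62 with no filter, 1.63 with DESeq2, 1.71 with limma-voom, 1.43 with the offsets and 1.69 with the offsets and siNC replicate 4 left out. With 1 library left out its value was 1.41 to 2.07. The replicate block called 4 genes and 0 members, with MMP7 at 1.18 (edgeR adjusted p 0.0562). Block and offsets together called 82 genes and 2 members, with MMP13 at 1.497. Same-numbered libraries did not deviate together (r -0.09, 0.30, -0.14 and -0.19 for numbers 1 to 4), and of the siETV4 libraries 1 of 4, replicate 2, correlated best with its own number. All other fits kept the direction and the side of the threshold of MMP7, MMP13 and MMP1, and no value reversed. MMP1 had none where the filter was 1 CPM or a mean of 0.5 FPKM. MMP10 and MMP12 were tested only without a filter (edgeR adjusted p 0.854 and 0.616, limma 0.855 and 0.702), and MMP3 never. The MMP7 to MMP13 ratio kept its direction throughout. The MMP13 to MMP1 ratio reached an exact permutation p of 0.0286 with a pseudocount of 5 (log2 difference 0.99). Why MMP13 changed sides was not tested. MMP1, MMP10, MMP12 and MMP3 are limited by their counts.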

Other observations

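MMP20 was the only one of the 34415 symbols with at least 20 counts in 1 library and 0 in the other 7. This cut-off was not among the planned tests and lies just under the 22 counts of MMP20, so this is a description only. DKK1, a secreted Wnt antagonist named after its values were seen, averaged 392 ± 26.9 CPM with siETV4 against 291 ± 24.3 CPM with siNC (SD, n = 4 each), and edgeR did not call it (log2 fold change 0.43, SE 0.09, adjusted p 0.110). It was called without siNC replicate 4 (edgeR adjusted p 0.0125) and once trends with GC content and length were taken out (edgeR adjusted p 0.0306). Of all genes, 12.0% were called higher in the first of these fits and 0.770% in the second.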
